A study of Mus musculus with 16 samples.

Results

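Nr2f1 and 7 other transcription factors of the RPE were followed through 16 mouse RNA-seq libraries. The RPE, or retinal pigment epithelium, is a single sheet of pigmented cells that nourishes the photoreceptors. The members are Nr2f1, Nr2f2, Mitf, Otx2, Sox9, Pax6, Lhx2 and Tfec, 8 of the 51912 genes in the deposited count table, and all 8 were among the 15380 genes tested. Nr2f1 was taken because it had one of the lowest genotype p-values in these libraries, rank 1 of the 15380 genes under hydroquinone and rank 2 over both treatments. Its differences between genotypes, and those built from the same groups, are therefore given as a description with no test. The other 7 were taken for what they are known to do, and the question was whether Nr2f1 moved alone or with them.

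The libraries came from male C57BL/6 mice aged 40 weeks, either wild type (WT) or knocked out for Sucnr1 (KO), the gene of the succinate receptor SUCNR1. Each genotype was left untreated or was exposed to hydroquinone, an oxidant; the route, dose and duration were not given in the sources used here, nor was the construct of the knockout. Each of the 4 groups held 4 libraries, each from 1 eye, with RPE lifted off the choroid by forceps after the retina and the front of the eye had been taken away. The titles name 2 mice for WT untreated, 4 for WT with hydroquinone, 3 for KO untreated and 4 for KO with hydroquinone, 13 in all, whereas the protocol gives 4 animals per group. Library identifiers in the labels' descriptions come with or without a letter in the sample number, 2 libraries of each form per group except WT with hydroquinone (1 with, 3 without); what the letter marks is not stated.

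Sucnr1 itself gave 29 counts over the 8 WT libraries, 4 of them at 0, and 4 counts over the 8 KO libraries, 6 of them at 0, too few to tell the genotype of a single library. Totals ran from 21113549 to 35332444 counts. The RPE identity was checked on 12 markers, all detected in every library; Rpe65, the retinoid isomerase of the visual cycle, ran from 2148 to 4337 CPM (counts scaled by TMM to a common library size). Markers of other tissues were present too. All 7 corneal epithelium markers were detected in every library, with the corneal keratin Krt12 at 241 to 10319 CPM. The rod marker score (mean log2(CPM + 1) over 15 markers) was highest in KO untreated replicate 4 and KO with hydroquinone replicate 1, at 9.81 and 9.66. It varied widely in every group. It ran from 5.37 to 8.57 in WT untreated, 4.35 to 7.47 in WT with hydroquinone, 3.53 to 9.81 in KO untreated and 2.77 to 9.66 in KO with hydroquinone. In bulk RNA of this kind, fewer cells of a type and less RNA per cell cannot be told apart.

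As background, MITF, a basic helix-loop-helix leucine zipper factor, and OTX2, a homeodomain factor, specify the RPE in the optic cup and drive its pigment genes. PAX6 and LHX2 are eye-field homeodomain factors that act before and alongside them, SOX9 is an HMG-box factor that activates visual cycle genes in the RPE together with OTX2 and LHX2, and TFEC belongs to the MITF family. NR2F1 and NR2F2, also called COUP-TFI and COUP-TFII, are closely related orphan nuclear receptors with roles in patterning the optic vesicle and in keeping RPE and neural retina apart.

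The promoter sequences shown are those of Mitf and Otx2, since these 2 members moved together from mouse to mouse (values given with the relations). Each is the 250 bases before a RefSeq transcript start on GRCm38.p6, printed 5' to 3' on the gene's strand. Mitf has several starts spread along the gene, of which the most 5' lies at chr6:97806808-97807057 (plus strand) and the most 3' at chr6:97991533-97991782 (plus strand). Otx2 also has several starts, and the window printed, before the most 5' of them, lies at chr14:48667645-48667894 (minus strand). The table of counts gives 1 value per gene, so the starts were not separated. Capitals mark matches, on either strand, to the motifs searched.
Mitf most 5' start: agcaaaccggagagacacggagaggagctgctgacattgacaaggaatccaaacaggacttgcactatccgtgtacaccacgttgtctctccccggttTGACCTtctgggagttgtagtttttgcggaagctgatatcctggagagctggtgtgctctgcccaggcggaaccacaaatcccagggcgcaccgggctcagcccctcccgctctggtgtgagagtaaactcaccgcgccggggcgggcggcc
Mitf most 3' start: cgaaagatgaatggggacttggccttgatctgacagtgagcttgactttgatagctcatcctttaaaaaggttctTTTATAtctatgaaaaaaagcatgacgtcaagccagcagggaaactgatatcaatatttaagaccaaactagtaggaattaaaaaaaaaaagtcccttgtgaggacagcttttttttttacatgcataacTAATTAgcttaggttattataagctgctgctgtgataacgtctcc
Otx2 most 5' start: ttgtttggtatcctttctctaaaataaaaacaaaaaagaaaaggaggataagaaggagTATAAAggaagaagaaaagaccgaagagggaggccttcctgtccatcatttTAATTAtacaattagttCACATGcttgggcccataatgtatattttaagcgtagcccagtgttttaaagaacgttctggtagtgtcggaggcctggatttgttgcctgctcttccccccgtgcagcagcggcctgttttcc
The 8 motifs searched on both strands were AGGTCA (nuclear receptor half-site), TAATCC (OTX site), CATGTG and CACGTG (E-boxes of the MITF kind), TAATTA (homeodomain core), ACAAAG (SOX site), TATAAA and CCAAT. The printed Otx2 window held 1 CATGTG, found in 12.3% of all 32817 such windows in the RefSeq table, 1 TAATTA (4.85% of all windows) and 1 TATAAA (12.4%). The most 5' Mitf window held 1 AGGTCA (14% of all windows) and the most 3' one a TAATTA and a TATAAA. No marked matches overlapped. Windows of the other starts, counted from the 5' end, are not printed. Mitf start 2 held 1 TAATCC (6.25% of all windows) and 1 CCAAT (33.8%). Otx2 start 2 held 1 CCAAT and Otx2 start 4 no match. Otx2 start 3, wholly inside annotated Otx2 exons, held 1 TAATCC and 3 TAATTA. Windows were found for 7 of the 8 members, all but Sox9, and those of Nr2f1 are not printed because they lie wholly inside its annotated exons. A match is a string of letters and not a measured binding site.

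The members covered a wide range of levels. Per kilobase of exon (CPM divided by the length of all annotated exons of the gene), Otx2 had the highest mean, 107 (69.6 to 139 over the 16 libraries), and no other member's range reached it. Sox9 at 21.8, Mitf at 20.3, Pax6 at 18.7 and Lhx2 at 14.2 followed, and the ranges of neighbours in this order overlapped. The range of Lhx2 lay just above that of Nr2f2 (lowest 10.23 against highest 10.17). Nr2f2 stood at 8.83 and Nr2f1 at 5.61, with overlapping ranges. Tfec was lowest, 0.425 CPM per kilobase, with 20 to 127 counts per library. The spread over libraries was smallest for Nr2f2, with a coefficient of variation of 10.9%, and largest for Tfec, 44.9%; it was 20.6% for Nr2f1.

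**Figure D1:**
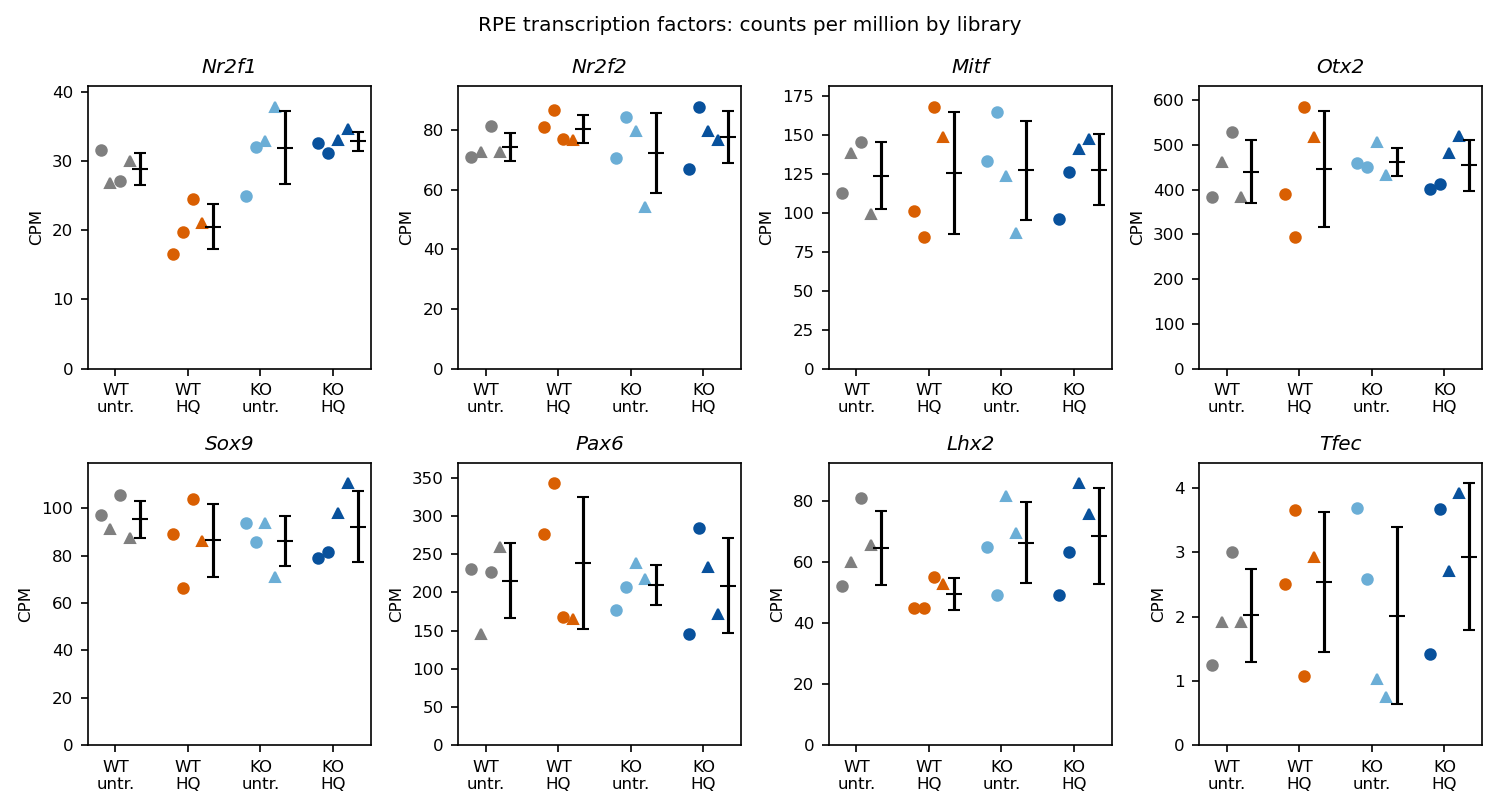
CPM (y axis, from 0) of the 8 members in each library, by genotype and by treatment (untr., untreated; HQ, hydroquinone), with the group mean and SD as a bar (n = 4 libraries). Circles are libraries whose identifier has no letter and triangles those with a letter; the 4 WT hydroquinone libraries of Nr2f1 lie below its other 12.

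Nr2f1 (ENSMUSG00000069171, chr13:78188973-78199757, minus strand, GENCODE vM21 on GRCm38) was lowest in WT mice exposed to hydroquinone. The 4 WT untreated libraries read 31.6, 26.8, 27.2 and 30.0 CPM, and the 4 WT libraries with hydroquinone read 16.6, 19.8, 24.6 and 21.1. The KO untreated libraries read 25.0, 32.0, 32.9 and 37.8 CPM, and the KO libraries with hydroquinone 32.6, 31.2, 33.1 and 34.6. Every WT library with hydroquinone was thus below every one of the other 12, while the other 3 groups overlapped each other. Of all genes tested, 0.143% had that group wholly below the other 3, but since Nr2f1 was chosen on these groups nothing is read from it.

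The Nr2f1 group means were 28.9 ± 2.28 (SD, n = 4) for WT untreated, 20.5 ± 3.29 for WT with hydroquinone, 31.9 ± 5.28 for KO untreated and 32.9 ± 1.41 for KO with hydroquinone. Under hydroquinone the log2 difference of KO against WT was 0.68 (SE 0.13), a ratio of 1.60. In untreated mice it was 0.15 (SE 0.13). Hydroquinone against untreated came to -0.49 on the log2 scale in WT (SE 0.13) and to 0.04 in KO (SE 0.13). The KO minus WT gap between those 2 values was 0.53 (SE 0.19).

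The test left for Nr2f1 is hydroquinone averaged over the genotypes, a contrast orthogonal to the genotype contrasts that chose it. All of them use the same estimate of the gene's spread, so its SE, interval and p are not wholly free of that choice. The log2 difference was -0.23 (SE 0.094, 95% interval -0.43 to -0.03), with an unadjusted p below 0.05 and an adjusted p of 0.864 in edgeR's quasi-likelihood test with Benjamini-Hochberg adjustment over 15380 genes. It did not pass the 0.05 threshold. The adjusted p ran from 0.264 to 1.00 over the alternatives tried, and 8 libraries with and 8 without hydroquinone overlapped in level.

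Nr2f2 (chr7:70351944-70366735), the paralogue of Nr2f1, was not lowest in the same group. Its libraries read 70.8, 72.6, 81.3 and 72.8 CPM in WT untreated and 81.1, 86.5, 77.0 and 76.6 in WT with hydroquinone. In KO they read 70.6, 84.4, 79.7 and 54.2 CPM untreated and 66.9, 87.7, 79.5 and 76.5 with hydroquinone. WT with hydroquinone, the lowest group for Nr2f1, had the highest mean for Nr2f2, 80.3 ± 4.63 (SD, n = 4), and the groups overlapped. The log2 difference of KO against WT under hydroquinone was -0.05 (SE 0.12, 95% interval -0.31 to 0.21, adjusted p = 1.00 in edgeR's test).

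Lhx2 (chr2:38339281-38369733), the eye-field factor that acts with OTX2, came closest to the Nr2f1 pattern. Its libraries read 52.1, 59.9, 81.0 and 65.6 CPM in WT untreated and 44.9, 45.1, 55.3 and 52.8 in WT with hydroquinone. In KO they read 65.1, 49.3, 81.7 and 69.5 CPM untreated and 49.1, 63.4, 85.8 and 75.8 with hydroquinone. The mean was lowest in WT with hydroquinone, 49.5 ± 5.31 (SD, n = 4), yet that group overlapped each of the other 3. The log2 difference of KO against WT under hydroquinone was 0.47 (SE 0.19, 95% interval 0.07 to 0.86), with an unadjusted p below 0.05 and an adjusted p of 1.00 in edgeR's test, so it did not pass. In untreated mice the difference was 0.04 (SE 0.18), and the difference between those 2 genotype effects, 0.43 (SE 0.26), had an adjusted p of 1.00.

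The Lhx2 value under hydroquinone was 0.22 among libraries whose identifier has no letter and 0.61 among those with one (where WT with hydroquinone has 1 library), and 0.33 without replicate 3 of KO with hydroquinone. It was 0.21 with the score of ciliary and iris epithelium markers as a covariate, a list of 5 genes that were all detected in every library. That score ran from 4.98 to 5.37 in WT untreated, 4.73 to 5.39 in WT with hydroquinone, 4.99 to 5.53 in KO untreated and 4.84 to 5.63 in KO with hydroquinone.

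The RPE specifiers Mitf and Otx2 and their partner Sox9 had group means that lay close together against the spread within groups. Mitf (chr6:97807052-98021349) had group means of 124 ± 21.7, 126 ± 39.1, 127 ± 31.9 and 128 ± 22.9 CPM (SD, n = 4) in WT untreated, WT with hydroquinone, KO untreated and KO with hydroquinone. Otx2 (chr14:48657677-48673819) had 440 ± 70.4, 447 ± 130, 462 ± 31.4 and 455 ± 56.6 CPM in the same order. Sox9 (chr11:112782224-112787760) had 95.3 ± 7.87, 86.4 ± 15.5, 86.1 ± 10.7 and 92.3 ± 14.8 CPM. Libraries of 1 group differed by more than the group means did: in WT with hydroquinone, Otx2 read 391, 294, 585 and 518 CPM and Mitf 101, 84.7, 168 and 148. Under hydroquinone the log2 difference of KO against WT had 95% intervals of -0.47 to 0.52 for Mitf, -0.37 to 0.41 for Otx2 and -0.21 to 0.40 for Sox9.

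Pax6, the eye-field regulator, and Tfec, the MITF relative, spread widely within groups. Pax6 (chr2:105668900-105697364) read 231, 145, 227 and 260 CPM in WT untreated and 277, 343, 168 and 166 in WT with hydroquinone. In KO it read 177, 207, 239 and 217 CPM untreated and 145, 284, 234 and 172 with hydroquinone, and all 4 groups overlapped. Tfec (chr6:16833373-16898441) ran from 0.747 to 3.92 CPM over the 16 libraries, with group means of 2.02 ± 0.725 and 2.54 ± 1.09 in WT, untreated and with hydroquinone, and 2.01 ± 1.38 and 2.93 ± 1.14 in KO (SD, n = 4). Its log2 difference for hydroquinone was 0.44 (SE 0.36, 95% interval -0.33 to 1.21, adjusted p = 0.919 in edgeR's test), an interval too wide to exclude a change of either sign. It was -0.08 among libraries whose identifier has no letter and 1.25 among those with one (adjusted p = 0.121 in edgeR's test). It was 0.67 without replicate 1 of KO untreated and 0.30 without replicate 4 of that group, and -0.08 with the Muller glia and astrocyte score as a covariate.

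**Figure D2:**
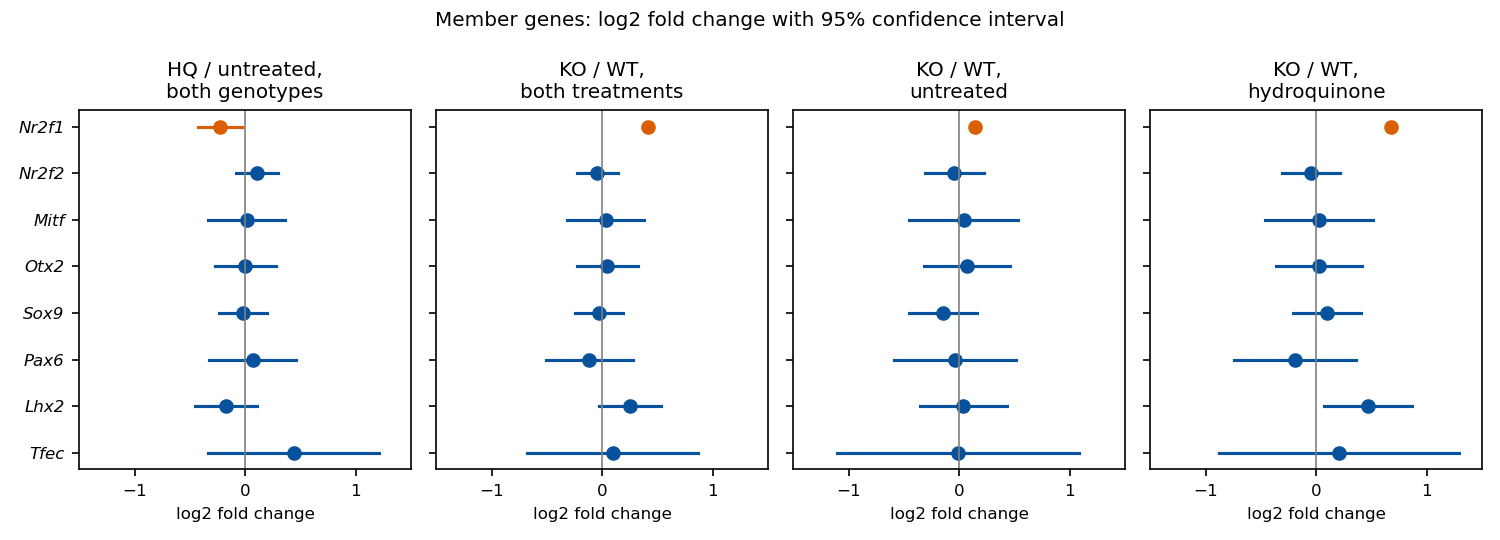
Log2 fold change (x axis) of each member with its 95% confidence interval (none is drawn for Nr2f1 between genotypes), for hydroquinone over both genotypes and for KO against WT over both treatments, untreated and under hydroquinone. Among the 7 members other than Nr2f1 (orange, shown without a test for genotype), 1 interval excludes 0, that of Lhx2 under hydroquinone (0.07 to 0.86).

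Across all members, 0 of 8 passed the adjusted threshold for hydroquinone averaged over genotype, where 0.0845% of all genes tested passed (13 of 15380). Over the 7 members other than Nr2f1, 0 had an unadjusted p below 0.05, against 5.72% of all genes tested, and the median log2 difference was 0.01, against 0.005 for all genes tested. For genotype averaged over treatment 0 of the 7 had an unadjusted p below 0.05, against 2.96% of all genes, and their median was 0.03 against 0.02 for all genes. Under hydroquinone 1 of the 7, Lhx2, had an unadjusted p below 0.05, as had 4.18% of all genes tested, and the median was 0.03 against 0.01. In untreated mice 0 of the 7 had an unadjusted p below 0.05, against 1.32% of all genes, and for the interaction 0 of 7 against 1.92%. With adjustment, edgeR called 0 genes of the whole table (0%) in the 2 genotype comparisons by treatment, in the averaged one and in the interaction; the counts at an unadjusted p below 0.05 were 643, 203, 456 and 296 for genotype under hydroquinone, untreated, averaged and the interaction. DESeq2 called 3, 0, 0 and 0 genes in these comparisons, and limma with the mouse as a block 0 in each. Nr2f1 was among the 3, in the comparison that had chosen it, so nothing is read from that call.

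Nr2f1 was the 1 member of 8 whose KO and WT libraries did not overlap under hydroquinone; 1.72% of all genes tested were wholly higher in KO there. It was also the 1 member wholly lower with hydroquinone than without it in WT, as were 1.78% of all genes. Both pairs of groups are those that chose it. No other member was free of overlap in either pair, nor was any of the 8 between KO and WT untreated (1.05% of all genes) or between hydroquinone and untreated in KO (1.91%).

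Whether the members moved together was tested from mouse to mouse, over 13 mice, on log2(CPM + 1) averaged over the eyes of a mouse with the group means removed. Nr2f1 had Pearson's r of 0.46 with Otx2, 0.28 with Lhx2, 0.23 with Mitf, 0.08 with Sox9, -0.46 with Pax6, -0.52 with Nr2f2 and -0.53 with Tfec. None of the 7 passed an exact permutation test within groups; the smallest two-sided p was 0.138, and the smallest p adjusted over the 7 relations was 0.509. The lowest Spearman p was that of Nr2f2 (rho = -0.70, exact permutation p = 0.0299, adjusted 0.210). By identifier form, over libraries with group means removed, not all of these relations kept their sign. Among libraries with no letter r was 0.52 with Mitf, 0.31 with Otx2, 0.15 with Sox9, -0.21 with Lhx2, -0.40 with Pax6, -0.07 with Nr2f2 and -0.67 with Tfec. Among the 7 with a letter it was -0.94, -0.83, -0.67, -0.44, 0.31, -0.77 and -0.14 in that order. WT with hydroquinone has 1 such library, which leaves no difference once its group mean is removed. Each other group leaves 1 difference, so these values carry little weight. Leaving out the 2 mice farthest from the median of Nr2f1 gave -0.72 for Nr2f2, 0.15 for Otx2, 0.13 for Lhx2 and -0.22 for Mitf. Without removing the group means, Nr2f1 and Lhx2 had r = 0.58 over 16 libraries. Both had their lowest mean in WT with hydroquinone. Nr2f1 was chosen on these groups, so nothing is read from that value.

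Otx2 rose and fell over the mice with Mitf and with Sox9. The r of Otx2 was 0.80 with Mitf (rho = 0.85, exact permutation p = 0.0048) and 0.84 with Sox9 (rho = 0.75, exact permutation p = 0.0017), and both had an adjusted p of 0.0446 over all 28 pairs of members. Mitf with Sox9 had r = 0.79 (rho = 0.75, exact permutation p = 0.0107, adjusted 0.0600). Without the 2 mice farthest from the median these 3 values were 0.78, 0.67 and 0.63. Within the libraries whose identifier lacks a letter they were 0.90, 0.92 and 0.77, and within those with a letter 0.97, 0.77 and 0.78. Values over those with a letter rest on 1 difference per group of 2 libraries and none from WT with hydroquinone, so they carry little weight. Nr2f2 and Tfec had r = 0.78 (rho = 0.71, exact permutation p = 0.0045, adjusted 0.0446), 0.72 without the 2 farthest mice, 0.67 over the libraries with no letter and 0.38 over those with one. By Spearman's rho no pair passed after adjustment, with 0.120 the lowest value.

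**Figure D3:**
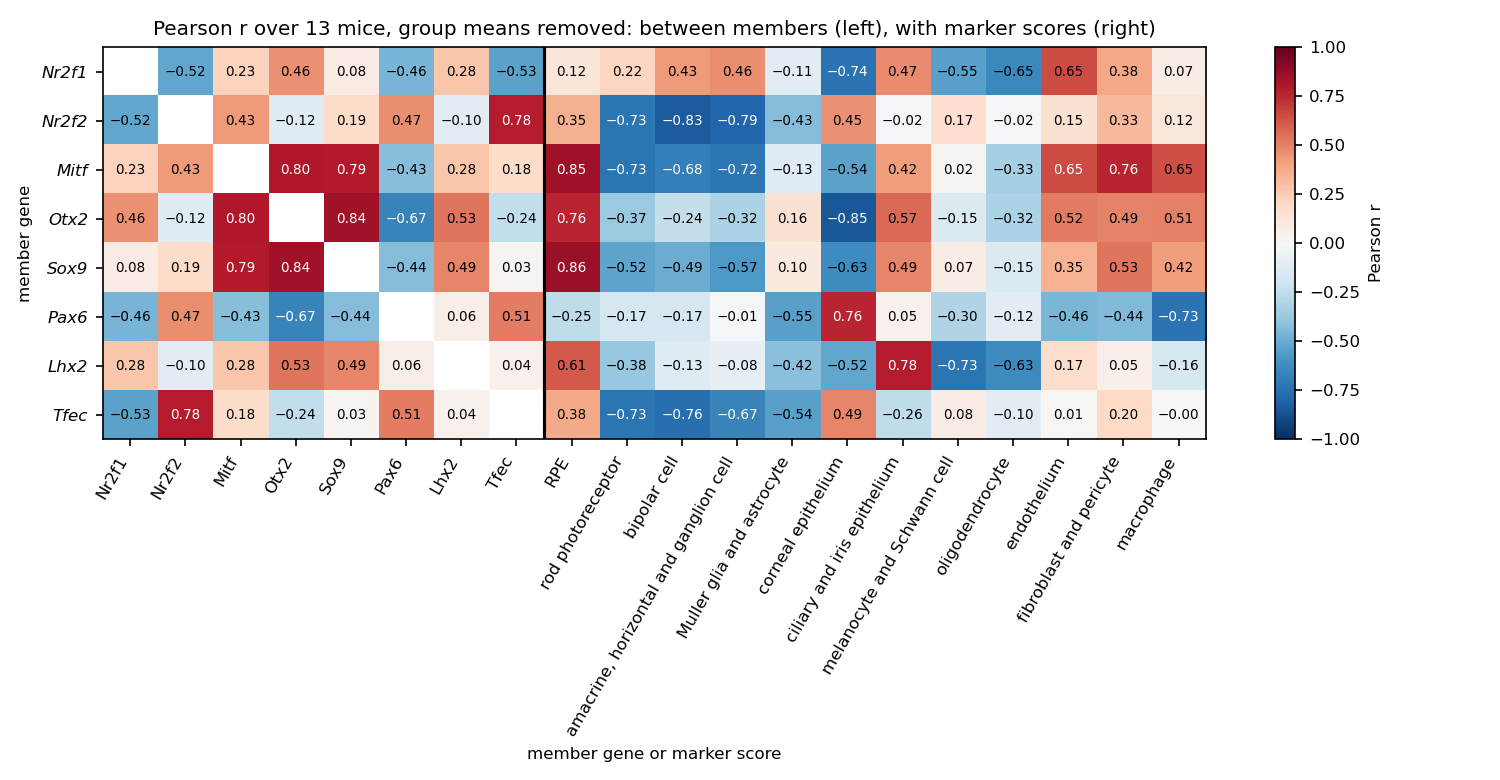
Pearson's r over 13 mice with group means removed, for each pair of members (left of the line) and for each member with each marker score (right of it). Mitf, Otx2 and Sox9 form a block of values from 0.79 to 0.84 and go with the RPE score, while the row of Nr2f1 stays between -0.53 and 0.46 among the members.

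The same 3 genes went with the score of the 12 RPE markers, with r = 0.85 for Mitf, 0.76 for Otx2 and 0.86 for Sox9 over 13 mice (exact permutation p = 0.0017, 0.0006 and 0.0027, adjusted 0.0528 each over 96 member and marker pairs). The score is not independent of these factors. It holds all 9 genes listed below as regulated by OTX2, SOX9 and LHX2, and Tyrp1 and Pmel of the genes listed as regulated by MITF. Otx2 went against the corneal score (r = -0.85, exact permutation p = 0.0282, adjusted 0.213) and Pax6 with it (r = 0.76, exact permutation p = 0.0722, adjusted 0.283); Pax6 is also expressed in the cornea. Lhx2 went with the ciliary and iris score (r = 0.78, exact permutation p = 0.0023, adjusted 0.0528). Pax6 had r = -0.73 with the 7 macrophage markers (exact permutation p = 0.0026, adjusted 0.0528). None of the 96 pairs passed by Pearson's r after adjustment, and 3 did by Spearman's rho, namely Otx2 with the RPE score (rho = 0.93), Pax6 with the macrophage score (rho = -0.70) and Lhx2 with the ciliary and iris score (rho = 0.83).

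Nr2f1 had a weak relation to the RPE score (r = 0.12, exact permutation p = 0.694; 0.06 over the libraries with no letter and -0.82 over those with one). Its largest r was with the corneal score, -0.74 (exact permutation p = 0.0127, adjusted 0.204), or -0.49 without the 2 farthest mice. Spearman's rho for it was -0.85 (exact permutation p = 0.0041, adjusted 0.0778). The r of that relation was -0.53 over the libraries with no letter and 0.46 over those with one. With group means removed, those with a letter leave 1 difference for each group of 2 libraries. They leave none for WT with hydroquinone, so an r over them is too thinly based to weigh a relation. The corneal score ran from 8.77 to 10.3 in WT untreated, 8.53 to 11.0 in WT with hydroquinone, 9.13 to 9.86 in KO untreated and 8.37 to 10.2 in KO with hydroquinone. The Muller glia and astrocyte score, over 7 markers detected in every library, was lowest on average in WT with hydroquinone, 6.23, against 7.42, 7.64 and 7.11 in WT untreated, KO untreated and KO with hydroquinone, and the 6 oligodendrocyte markers averaged 3.58 there against 6.67, 6.46 and 5.02. The Nr2f1 difference between genotypes under hydroquinone was 0.61 with the corneal score as a covariate, 0.66 with the Muller glia and astrocyte score, 0.59 with the ciliary and iris score and 0.72 with the rod score. It was 0.65 over the libraries with no letter in the identifier and 0.68 over the rest, where WT with hydroquinone has 1 library.

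**Figure D4:**
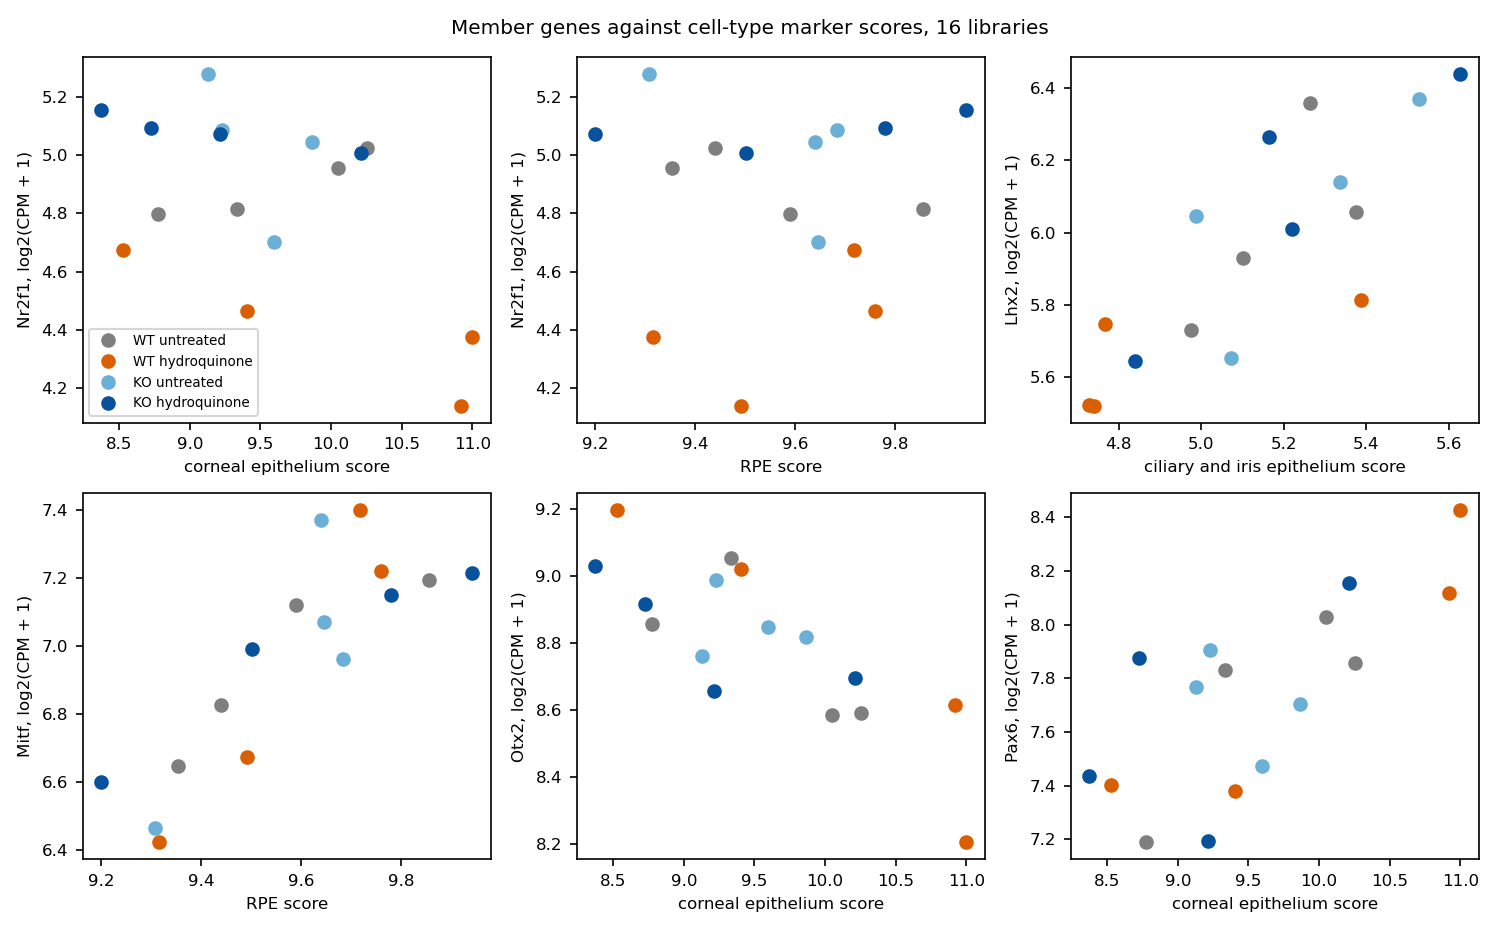
Level of a member, log2(CPM + 1), against a marker score (mean log2(CPM + 1) of the markers), 1 point per library, coloured by group. Mitf rises with the RPE score and Lhx2 with the ciliary and iris score, while Otx2 falls and Pax6 rises with the corneal score. The 4 WT hydroquinone libraries span corneal scores from 8.53 to 11.0. Among them Nr2f1 was lowest (16.6 CPM) in replicate 1, at a corneal score of 10.9, and highest (24.6 CPM) in replicate 3, at 8.53.

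The genes whose levels were most like Nr2f1 over the 16 libraries, by Pearson's r of log2(CPM + 1), were Tgfb2 (0.87), which encodes the growth factor TGF-beta 2, Mboat2 (0.87), a lysophospholipid acyltransferase gene, Greb1 (0.86), Minar2 (0.86) and Ptprz1 (0.84), a receptor tyrosine phosphatase gene. Each had its lowest group mean in WT with hydroquinone. Tgfb2 averaged 80.8, 59.8, 97.3 and 111 CPM in WT untreated, WT with hydroquinone, KO untreated and KO with hydroquinone, and Ptprz1 45.7, 29.1, 47.6 and 56.7. These 5 were picked for that likeness out of 15379 genes, so it is not tested.

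Genes beside the members were read as well, because the counting was not stated to use strand and reads of a gene and its antisense neighbour then cannot be told apart. A830082K12Rik, antisense to Nr2f1 (chr13:78198017-78279391, plus strand), had a mean of 5.87 CPM, against 28.6 for Nr2f1. Its group means were 6.44 ± 1.46, 5.03 ± 1.38, 5.93 ± 0.846 and 6.10 ± 0.828 (SD, n = 4) in WT untreated, WT with hydroquinone, KO untreated and KO with hydroquinone, and its KO against WT difference under hydroquinone was 0.28 (SE 0.22). Otx2os1, which starts beside Otx2 on the opposite strand, averaged 35.2 CPM with r = 0.84 to Otx2 over 16 libraries. Pax6os1 averaged 3.81 CPM and B130024G19Rik, beside Nr2f2, 2.43 CPM. Those beside Lhx2 and Sox9 were below 1 CPM.

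Other eye-field and RPE fate regulators, a list of 16 genes all of which were tested, were mostly higher in KO than in WT, as Nr2f1 and Lhx2 were. Under hydroquinone 13 of 16 were higher in KO, with a median log2 difference of 0.36 against 0.01 for all genes tested. Averaged over treatment 14 of 16 were higher with a median of 0.36 against 0.02, and untreated 12 of 16 with 0.19 against 0.01. None passed the adjusted threshold. An unadjusted p below 0.05 under hydroquinone was found for 6 of the 16, against 4.18% of all genes, and they are named here after their values were seen. Higher in KO were the optic stalk gene Pax2 (2.29), Rax (1.00), Zic2 (0.98), Zic1 (0.83) and Foxd1 (0.67); Klf4, which the corneal epithelium expresses too, was lower (-1.12). For hydroquinone averaged over genotype 5 of the 16 were higher, with a median of -0.29 against 0.005 for all genes tested, and 2 had an unadjusted p below 0.05, both lower, against 5.72% of all genes. These were Vax2 (-1.42, SE 0.64, adjusted p = 0.868 in edgeR's test), a gene of the ventral optic cup, and Foxd1 (-0.41, SE 0.18). Vax2 read 40.0 CPM in replicate 4 of KO untreated, one of the libraries of highest rod score, and 1.10 to 7.05 in the other 3 of that group.

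Zic2, named after its values were seen, was wholly higher in KO than in WT under hydroquinone, as were 1.72% of all genes tested. Its WT libraries with hydroquinone began at 12.5 CPM and its KO libraries with hydroquinone ran from 27.2 to 45.1 CPM, all 4 above the highest of the WT ones. Pax2 had a mean of 0.423 CPM in WT with hydroquinone and 2.05 in KO with hydroquinone, so its ratio rests on low counts. Klf4 read 437 and 493 CPM in replicates 1 and 2 of WT with hydroquinone, the 2 libraries of highest corneal score, and 78.7 and 146 in replicates 3 and 4. Zic1 belongs to the ciliary and iris marker list as well as to this one, and so does Otx1. With the ciliary and iris score as a covariate the median of the list under hydroquinone was 0.22; averaged over treatment it was 0.07 without the 2 libraries of highest rod score (0.09 without replicate 4 of KO untreated alone and 0.17 without replicate 1 of KO with hydroquinone alone) and 0.05 over the libraries whose identifier lacks a letter.

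**Figure D5:**
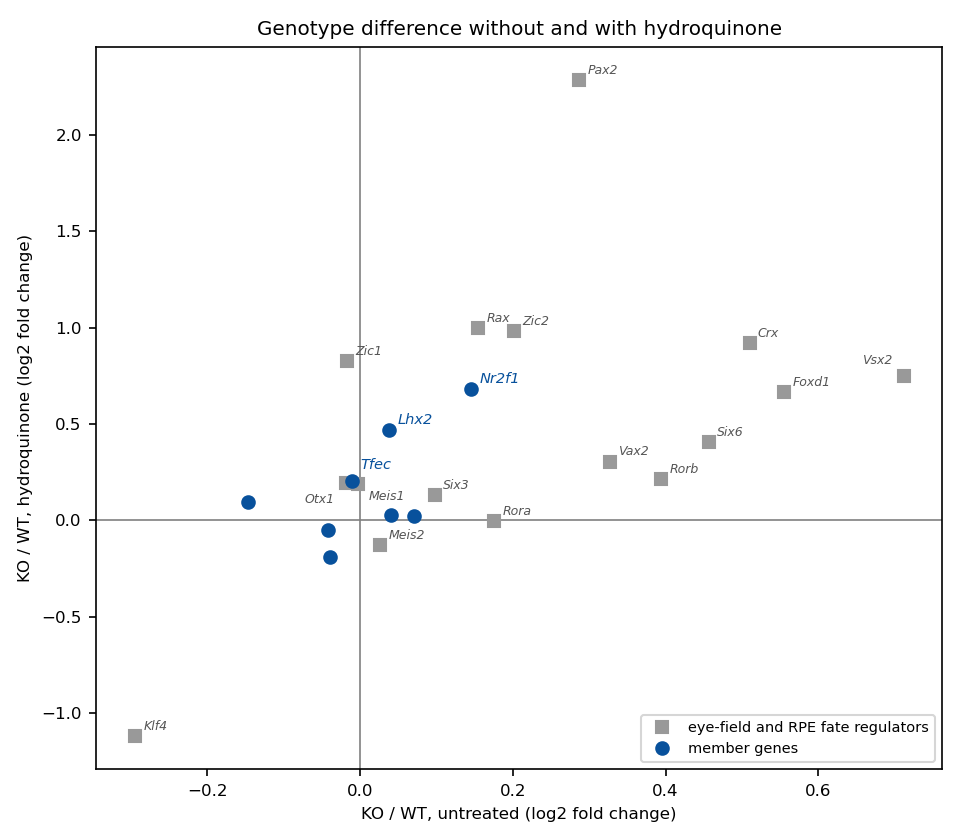
Log2 difference of KO against WT in untreated mice (x axis) and under hydroquinone (y axis) for the members (blue circles) and for 16 other eye-field and RPE fate regulators (grey squares). Of the latter, 13 lie above 0 on the y axis and 12 to the right of 0 on the x axis; Nr2f1 and Lhx2 lie highest of the members, and the axes share no libraries.

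The pathways on either side of the members showed smaller medians. For these lists and those that follow, the median of all genes tested was 0.01 for KO against WT under hydroquinone. It was 0.01 for KO against WT in untreated mice and 0.005 for hydroquinone averaged over genotype. Of 12 pigment genes regulated by MITF, 11 were higher in KO under hydroquinone with a median of 0.25, led by Trpm1 (0.48, SE 0.25), a gene that also stands in the list of 7 bipolar cell markers, and Dct (0.47, SE 0.25), and 2 of 12 were higher in untreated mice with a median of -0.08; none had an unadjusted p below 0.05 in edgeR's test. Of 9 RPE genes regulated by OTX2, SOX9 and LHX2, 5 were higher in KO under hydroquinone, with a median of 0.01. In the MITF family and its partners, 9 of 12 were higher with hydroquinone, with a median of 0.06. There Tfe3, a close relative of MITF, had a difference of 0.23 (SE 0.067, adjusted p = 0.743 in edgeR's test).

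Among 9 other NR2 and RXR nuclear receptors, 6 were higher with hydroquinone, with a median of 0.08. Rxra, the partner receptor of the retinoic acid receptors, had 0.28 (SE 0.078, adjusted p = 0.631 in edgeR's test), with group means of 119, 137, 106 and 136 CPM in WT untreated, WT with hydroquinone, KO untreated and KO with hydroquinone. In the retinoic acid pathway, 7 of 13 genes were higher in KO under hydroquinone, with a median of 0.04. Cyp26b1, which degrades retinoic acid, had the largest difference there, -0.95 (SE 0.41, adjusted p = 1.00 in edgeR's test), with 66.3 CPM in WT and 34.4 in KO. Aldh1a2, which makes retinoic acid, had -0.58 for hydroquinone (SE 0.24, adjusted p = 0.864 in edgeR's test).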

How the data were processed

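RNA from single eyes was sequenced as paired ends on an Illumina NovaSeq, per the labels' protocols. The authors deposited whole-number counts per Ensembl gene for 16 libraries; the table's name says FPKM, but its values are whole and their totals differ. The submitters' processing notes name mm10, STAR, Cufflinks and DESeq2 without role or version; strand setting and annotation are not given in the sources used here. Symbols, coordinates and exon lengths came from GENCODE vM21, which matched 51719 of 51912 identifiers. Genes averaging 1 CPM or more were tested in 1 edgeR 4.0.16 quasi-likelihood model of the 4 groups with TMM scaling, in R 4.3.3, and its routine was tested on simulated data. Relations used exact permutations of mice within groups (6912). P-values take libraries as replicates, although some share a mouse. Alternatives were other scaling, no filter, DESeq2 1.42.0, limma 3.58.1 with the mouse as a block, eyes summed, identifier form, marker scores as covariates (corneal, Muller and ciliary ones chosen after seeing the data) and each library left out. Members and lists were chosen with earlier results of these data known. Besides the members, genes named were those next to a member, the 5 most like Nr2f1 and, per list, at most the 2 with the largest differences for hydroquinone and for genotype under it; Rax, Zic1, Zic2 and Foxd1 were named after their values were seen.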

Additional observations from a re-analysis of the deposited data

How the results depend on the processing

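The Nr2f1 difference between genotypes under hydroquinone ran from 0.59 to 0.78 over 29 alternatives and that averaged over treatment from 0.31 to 0.50; its hydroquinone difference ran from -0.28 to -0.18, with an unadjusted p below 0.05 in 19 of the 29 and an adjusted p from 0.264 to 1.00. The Lhx2 difference under hydroquinone ran from 0.21 to 0.63, with an unadjusted p below 0.05 in 21 of 29 and an adjusted p of at least 0.373. The count of genes called for hydroquinone, 13 as reported, was 37 with DESeq2, 6 with the eyes of a mouse summed, 2 among libraries without a letter, 0 among those with a letter, 5 with the Muller glia and astrocyte score as a covariate, and 7 to 15 with each library left out. For genotype under hydroquinone DESeq2 called 3 genes against 0, and 1 of them was Nr2f1, which that comparison had chosen. The medians of the eye-field list ran from 0.05 to 0.50 averaged over treatment and from 0.20 to 0.53 under hydroquinone.

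Differences of the other members changed sign under some alternatives, most of them within 0.12 of 0 as reported, but also those of Tfec for hydroquinone (0.44) and for genotype under it (0.20), Lhx2 for genotype averaged (0.25) and Pax6 for genotype under hydroquinone (-0.19). The cause was not tested; in log2, the values that did are these. With median-of-ratios scaling the values were Otx2 0.0014 for hydroquinone. With no filter on low counts the values were Otx2 0.0075 for hydroquinone. With the eyes of a mouse summed the values were Otx2 0.016, Sox9 0.0071 for hydroquinone. With identifier form as a covariate the values were Otx2 0.0082 for hydroquinone, and Otx2 -0.0067 for genotype under hydroquinone. Among libraries without a letter the values were Mitf -0.31, Tfec -0.077 for hydroquinone, and Otx2 -0.030, Lhx2 -0.0026 for genotype averaged, and Mitf -0.077, Otx2 -0.048, Sox9 -0.10 for genotype under hydroquinone. Among libraries with a letter the values were Otx2 0.19, Sox9 0.14, Pax6 -0.23 for hydroquinone, and Mitf -0.10, Sox9 0.080, Pax6 0.23, Tfec -0.46 for genotype averaged, and Nr2f2 0.027, Mitf -0.039, Otx2 -0.047, Pax6 0.29 for genotype under hydroquinone. With the rod score as a covariate the values were Mitf -0.078 for hydroquinone, and Mitf -0.10, Tfec -0.35 for genotype averaged, and Mitf -0.14, Otx2 -0.032, Tfec -0.27 for genotype under hydroquinone. With the corneal score the values were Mitf -0.0087 for hydroquinone, and Mitf -0.051, Otx2 -0.063, Pax6 0.099 for genotype averaged, and Nr2f2 0.0077, Mitf -0.13, Otx2 -0.16, Sox9 -0.020, Pax6 0.15 for genotype under hydroquinone. With the Muller glia and astrocyte score the values were Mitf -0.13, Pax6 -0.10, Tfec -0.076 for hydroquinone, and Nr2f2 0.020 for genotype averaged, and Nr2f2 0.055 for genotype under hydroquinone. With the ciliary and iris score the values were Otx2 0.060, Sox9 0.015 for hydroquinone, and Mitf -0.027, Otx2 -0.030 for genotype averaged, and Mitf -0.084, Otx2 -0.11 for genotype under hydroquinone. Without the 2 libraries of highest rod score the values were Mitf -0.0094, Otx2 0.0049 for hydroquinone, and Nr2f2 0.047, Sox9 0.050 for genotype averaged, and Nr2f2 0.014 for genotype under hydroquinone. With each library left out the ranges were Mitf -0.074 to 0.087, Otx2 -0.079 to 0.077, Pax6 -0.045 to 0.14, Sox9 -0.071 to 0.033 for hydroquinone, Mitf -0.041 to 0.12, Nr2f2 -0.087 to 0.013, Otx2 -0.030 to 0.13, Sox9 -0.080 to 0.024, Tfec -0.13 to 0.23 for genotype averaged, and Mitf -0.12 to 0.20, Nr2f2 -0.11 to 0.016, Otx2 -0.13 to 0.18, Pax6 -0.38 to 0.036, Sox9 -0.013 to 0.20, Tfec -0.049 to 0.43 for genotype under hydroquinone. With each mouse left out, the r of Nr2f1 ran from -0.10 to 0.70 with Mitf and from -0.32 to 0.38 with Sox9. No paired analysis was possible because the labels give no replicate numbers shared between groups. Mice are named, and eyes of 1 mouse had a consensus correlation of -0.020. Only some untreated mice gave both eyes, and these eyes always differed in identifier form, so that value cannot show that eyes of 1 mouse are independent. With 4 libraries a group, some from 1 mouse, a difference had to be large against the spread to pass; for Tfec, with as few as 20 counts, the depth adds to that spread.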
